A study of Cunninghamia lanceolata with 3 samples.

Results

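Cell cycle regulators other than kinesins and tubulins were described here in cambium of the conifer Cunninghamia lanceolata, or Chinese fir. The members are all unigenes, that is assembled transcript sequences, whose best protein hit carries a name of the cell division machinery. The names searched were cyclin, cell division, E2F, retinoblastoma, mitotic or mitosis, anaphase, spindle, aurora, cytokinesis, MAD2, BUB1 or BUB3, cohesin and condensin, and any text naming a kinesin or a tubulin was left out. This rule took in 43 of the 53590 unigenes with a read in any library, and it used no measured value. Among the members, no hit named an aurora kinase or a D-type cyclin.

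The vascular cambium is the layer of dividing cells that makes wood inward and bark outward. RNA was compared at 3 stages of its yearly cycle, dormant, reactivating and active, with 1 library per stage. All 3 came from untreated trees aged 16 years, 15 m tall and 12 cm across, growing under natural conditions, and the tissue was taken as tangential cryosections. How many trees went into each library is not given in the labels, so no difference below has a replicate check, and no p-value was computed.

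Division in plant cells is driven by cyclin-dependent kinases (CDKs), which act only when bound to a cyclin. In the first part of the cycle CDKs phosphorylate the retinoblastoma-related protein (RBR), which then releases E2F transcription factors that switch on genes for DNA synthesis. Later, A-type and B-type cyclins with plant-specific B-type CDKs carry the cell into mitosis, condensin compacts the chromosomes, and cohesin holds sister chromatids together. The spindle checkpoint, with MAD1, MAD2 and BUB3, delays the anaphase promoting complex, a ubiquitin ligase that destroys mitotic cyclins, until the chromosomes are attached. In the cambium of temperate trees this machinery rests in winter and works again when growth resumes.

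Each library held 5.84 to 5.85 M uniquely mapped reads (M for mega). The members together took 5422 reads in the dormant library (95% exact Poisson interval 5279 to 5568), 6053 in the reactivating library (5901 to 6207) and 5831 in the active library (5682 to 5983). These sums lay close together, while single members lay far apart. The sums mix classes of opposite direction. CDC48, a member with a wider role described below, took 1597 dormant, 1121 reactivating and 823 active reads. The E2F and RBR class took 541, 938 and 1158 in the same order of libraries. Reads were found for 39 members in the dormant library, for all 43 in the reactivating library and for 42 in the active library. Counts of at most 10 reads occurred for 19, 8 and 7 of the 43 members in that order. The median level was 5.76, 21.2 and 14.8 RPKM (reads per kilobase of unigene and per M reads) in the dormant, reactivating and active library, beside medians over all unigenes of 10.9, 11.9 and 11.7 RPKM. The median share of a member's length covered by reads was 78.6%, 90.3% and 91.1%.

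Members are unigenes and not replicates, and several can be fragments of 1 transcript. Their median length was 540 bases, with a range of 179 to 4397, against a median of 323 over all unigenes. The name of each is that of its best hit in another species, for 12 members castor bean, and 1 best hit came from a conifer. Of the 43 members, 18 also had a gene ontology term of the cell cycle, division or mitosis. Below, every ratio is between RPKM values, and the range in parentheses is the 95% exact interval from the reads. That interval covers counting error only, since tree-to-tree variation and PCR copies are not in it.

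**Figure D1:**
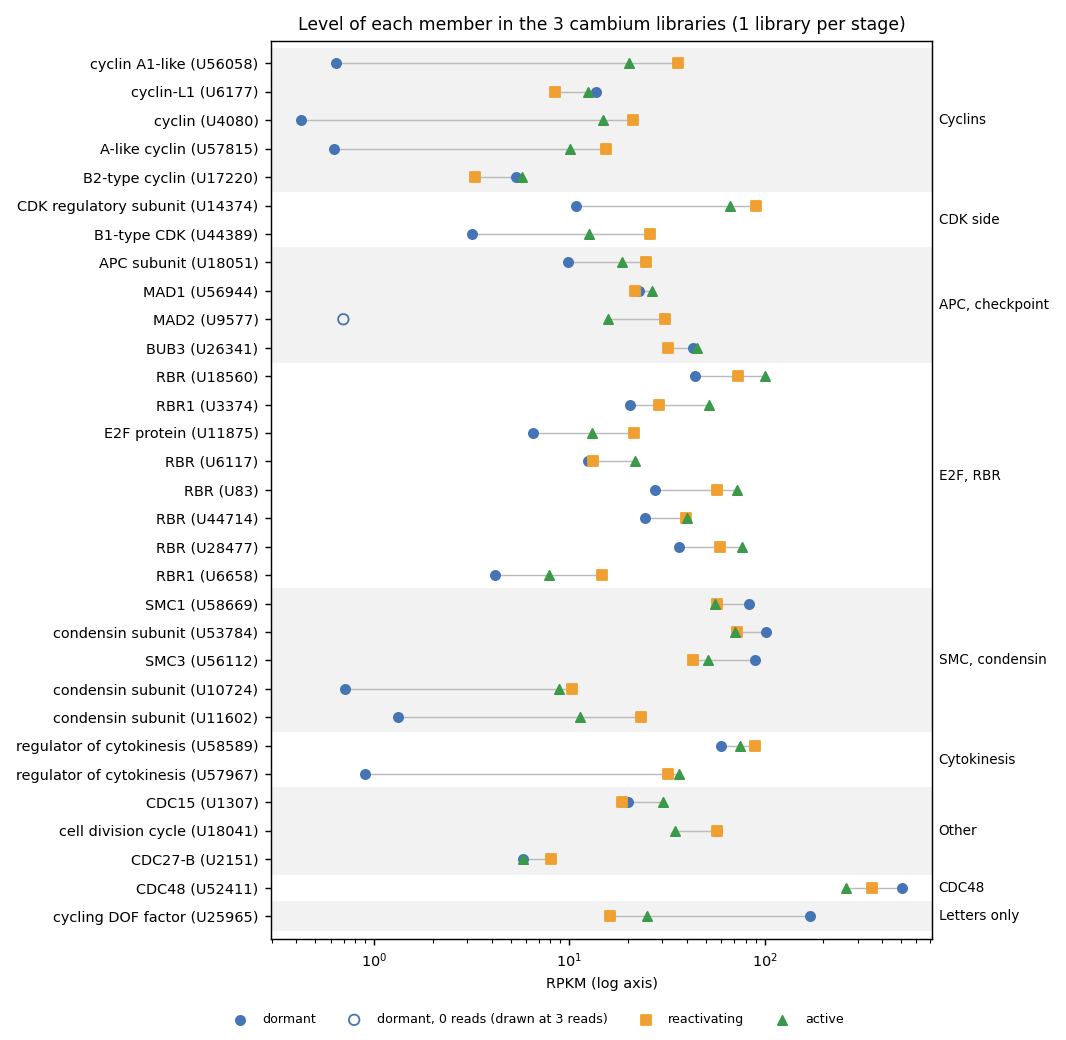
Level of the 31 members with at least 50 reads over the 3 libraries, in RPKM on a log axis, grouped by role, with 1 symbol per library (1 library per stage, no error bars). The A-type cyclins, MAD2, 1 regulator of cytokinesis and a pair of condensin-named unigenes stood near or below 1 RPKM in the dormant library, the open circle standing for 0 reads drawn at 3 reads, while SMC1, SMC3 and CDC48 were highest there.

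Between the reactivating and the dormant library, the members differed widely in size and direction. A-type cyclins, MAD2, a B-type CDK, the CDK regulatory subunit, a regulator of cytokinesis and a pair of condensin-named unigenes were 8.17-fold to 56.7-fold higher in the reactivating library, several from a handful of reads and MAD2 from 0, which gives only a lower bound. RBR unigenes were mostly less than 2-fold higher, MAD1, BUB3 and the B2-type cyclin had intervals that included 1, and SMC1, SMC3 and CDC48 were lower. A member was compared where the 2 libraries held 20 or more of its reads between them. Of the 36 such members, 16 were higher by 2-fold or more, or 44.4%, beside 16.9% of 36274 unigenes measured the same way. Another 2 were at least 2-fold lower, or 5.56%, beside 13.8% of all unigenes. The median log2 ratio was 0.70 over these 36 members and 0.07 over all unigenes measured. Of the 16 higher members, 12 had at most 10 reads in the dormant library. They reached the minimum of 20 reads mostly through the reactivating library, which favoured a higher call, and those with the fewest had to differ. The other 4 were the CDK regulatory subunit, the anaphase promoting complex subunit, the E2F protein Unigene11875 and the RBR unigene Unigene83. In bulk tissue, fewer dividing cells and less of an RNA per dividing cell cannot be told apart.

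**Figure D2:**
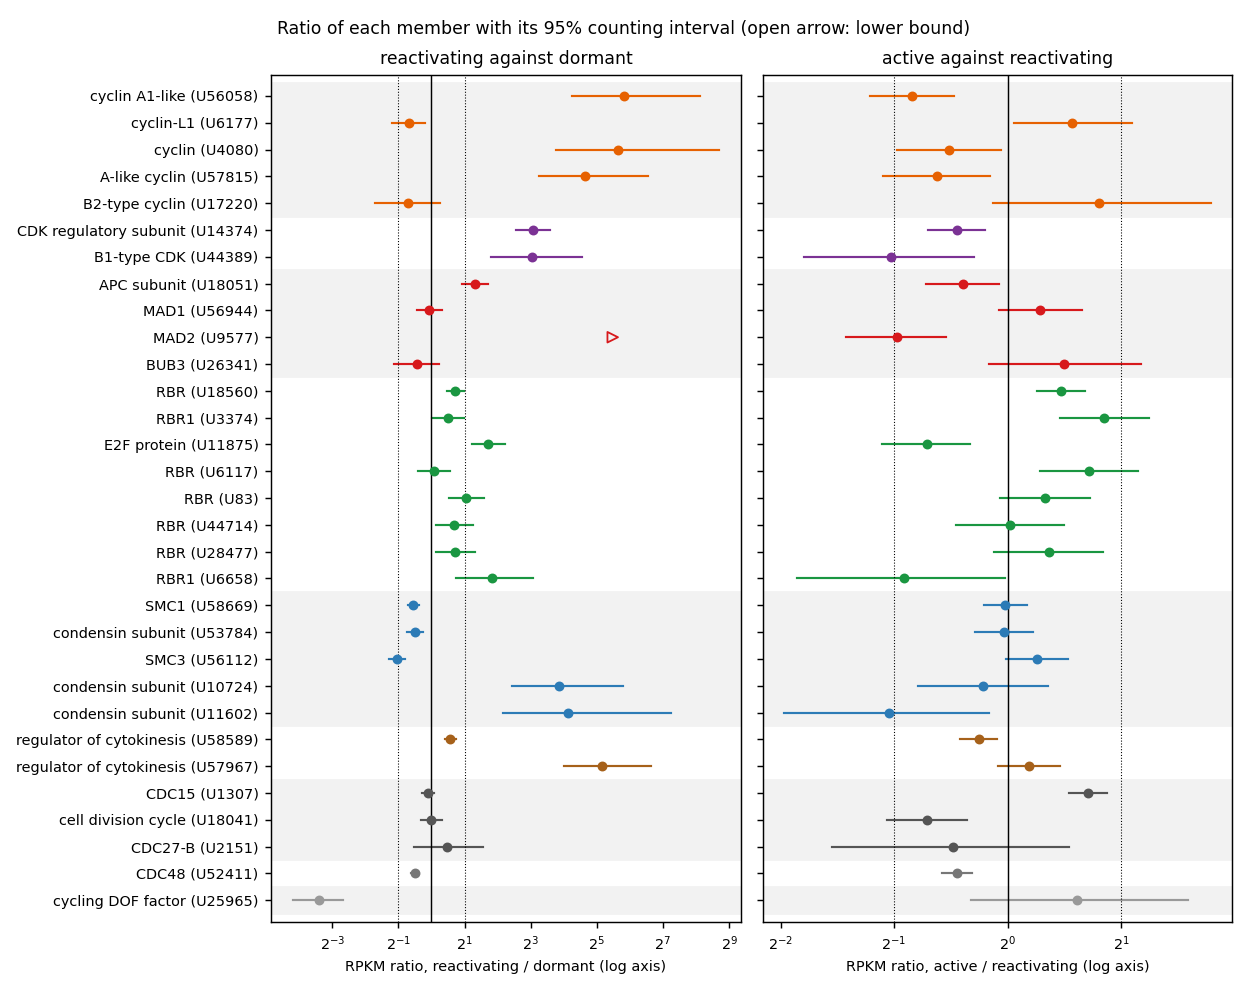
Ratio of RPKM values for the same members on log axes, reactivating over dormant on the left and active over reactivating on the right, with the 95% counting interval as a line and dotted lines at 2-fold. On the left the members run from the cycling DOF factor, 10.5-fold lower, to the cyclin A1-like unigene, 56.7-fold higher. The open arrow for MAD2, marked as a lower bound, is drawn with 3 reads in place of 0, and the interval itself began lower, at 35.8-fold. On the right nearly all points lie between the dotted lines.

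Among 5 cyclins, 3 were nearly silent in the dormant library and 2 were not. The mitotic cyclin A1-like protein (Unigene56058, 802 bases) had 3 dormant, 170 reactivating and 95 active reads, at levels of 0.640, 36.2 and 20.3 RPKM. Values below keep this order of libraries. Only the dormant library was near 0, and the reactivating level was 56.7-fold above it (19.1 to 277). The active level was 1.79-fold below the reactivating one (1.38 to 2.32). A-type cyclins are needed for DNA synthesis and for entry into mitosis.

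A second A-like cyclin (Unigene57815), whose best hit is from the conifer Picea abies, had 4, 100 and 65 reads, or 0.619, 15.5 and 10.1 RPKM. It was 24.995-fold higher in the reactivating than in the dormant library (9.46 to 93.5) and then 1.54-fold lower in the active one (1.11 to 2.13). The unigene named only cyclin (Unigene4080) had 2, 100 and 70 reads, or 0.423, 21.2 and 14.8 RPKM, with a reactivating to dormant ratio of 49.99 (13.5 to 418). All 3 therefore had the same order of libraries, reactivating above active above dormant. Reads covered 12.1% to 16.4% of the length of these 3 unigenes in the dormant library and 93.8% to 99.0% in the reactivating one.

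The other two cyclins did not share this order. The B2-type cyclin (Unigene17220), named for a class that acts at the entry into mitosis, had 26, 16 and 28 reads, or 5.33, 3.28 and 5.75 RPKM. Its reactivating to dormant ratio of 0.615 had an interval of 0.308 to 1.19, so a difference was not detectable at this depth. Cyclin-L1 (Unigene6177) had 87, 54 and 80 reads, or 13.6, 8.45 and 12.5 RPKM, and its reactivating level was the lowest, 1.61-fold below the dormant one (1.13 to 2.31). L-type cyclins are linked to RNA splicing rather than to the cell cycle. Summed over the 5 cyclins, the reads were 122 (101 to 146), 440 (400 to 483) and 338 (303 to 376).

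The kinase side was represented by 3 unigenes, of which 2 had enough reads to compare. The CDK regulatory subunit (Unigene14374), a small protein that binds CDKs and helps them hold their substrates, had 38, 317 and 232 reads, or 10.8, 90.5 and 66.3 RPKM. At 90.5 RPKM it had the highest reactivating level among the cyclin and CDK members, 8.34-fold above the dormant level (5.95 to 12.0). The CDK unigenes cdc2Pa and cdc2Pnc, outside the member rule, had higher reactivating levels of 162 and 99.9 RPKM. Its active level was 1.36-fold lower than the reactivating one (1.15 to 1.62).

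The B1-type CDK (Unigene44389), of the plant-specific class active around mitosis, had 6, 49 and 24 reads, or 3.17, 25.9 and 12.7 RPKM. It was 8.17-fold higher in the reactivating than in the dormant library (3.49 to 23.3) and 2.04-fold lower in the active than in the reactivating one (1.23 to 3.48). Both unigenes were thus highest in the reactivating library, with intervals that excluded 1 against either of the other libraries. A further unigene named cyclin-dependent kinase B (Unigene33565) had 0, 3 and 3 reads, too few for a ratio.

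Of 4 unigenes of the anaphase promoting complex and the spindle checkpoint, MAD2 lay far apart between libraries and MAD1 and BUB3 did not. MAD2 (Unigene9577), the checkpoint protein that blocks the anaphase promoting complex, had 0, 134 and 68 reads, or 0, 31.1 and 15.8 RPKM. With 3 reads in place of 0, its reactivating level was 44.7-fold above the dormant one, and the interval began at 35.8-fold. Its active level was 1.97-fold below the reactivating one (1.46 to 2.68). MAD1 (Unigene56944), the partner that anchors MAD2 at the kinetochore, had 123, 118 and 144 reads, or 22.7, 21.7 and 26.6 RPKM. Its 3 libraries lay within 1.22-fold of each other, and the intervals of all its ratios included 1.

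BUB3 (Unigene26341), a further checkpoint protein, had 46, 34 and 48 reads on a fragment of 182 bases, or 43.2, 31.9 and 45.1 RPKM. The interval of its reactivating to dormant ratio, 0.460 to 1.18, also included 1. An anaphase promoting complex subunit (Unigene18051) had 75, 187 and 142 reads, or 9.86, 24.6 and 18.7 RPKM, and was 2.49-fold higher in the reactivating than in the dormant library (1.90 to 3.30). CDC27-B (Unigene2151), a subunit of the same complex that entered by its cell division name, had 15, 21 and 15 reads, with an interval of 0.688 to 2.92 around its ratio of 1.40. That interval overlaps the one of Unigene18051.

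RBR and E2F made up the largest group, with 9 RBR and 2 E2F unigenes, and most RBR unigenes were highest in the active library. The 9 RBR unigenes matched 7 different protein entries, and whether they are pieces of the same transcripts was not tested. Their levels in the dormant library ran from 4.15 to 44.0 RPKM. Summed over all 9, the reads were 487 in the dormant (445 to 532), 768 in the reactivating (715 to 824) and 1044 in the active library (982 to 1109). The summed active reads were 2.15-fold above the dormant ones (1.93 to 2.39) and 1.36-fold above the reactivating ones (1.24 to 1.496). This stepwise order differs from that of the A-type cyclins and MAD2.

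The most abundant RBR unigene (Unigene18560) had 191, 316 and 438 reads, or 44.0, 72.8 and 101 RPKM. Each step upward had an interval above 1, at 1.65-fold (1.38 to 1.99) and then 1.39-fold (1.198 to 1.61). Unigene3374 had 61, 86 and 155 reads, or 20.5, 28.9 and 52.1 RPKM, with a second step of 1.80-fold (1.38 to 2.38). Unigene6117 had 71, 75 and 123 reads, or 12.5, 13.1 and 21.6 RPKM, so its levels differed beyond counting error only at the active stage, which was 1.64-fold above the reactivating one (1.22 to 2.22).

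Unigene83 had 47, 98 and 123 reads, or 27.5, 57.4 and 72.1 RPKM, with most of its difference between dormant and reactivating, 2.08-fold (1.46 to 3.02). Unigene28477 (41, 67 and 86 reads) and Unigene44714 (47, 76 and 77 reads) were 1.63-fold and 1.62-fold higher in the reactivating than in the dormant library, and for both the active to reactivating interval included 1. Of the 7 RBR unigenes with at least 50 reads, 6 were highest in the active library, or 85.7%, beside 28.5% of all unigenes with that many reads. For 3 the intervals against both other libraries excluded 1, or 42.9%, beside 10.4%. If they are pieces of the same transcripts, these counts hold the same transcript more than 1 time. The exception was Unigene6658, highest in the reactivating library with 9, 32 and 17 reads. The remaining pair, Unigene14554 (11, 12 and 11 reads) and Unigene10806 (9, 6 and 14 reads), had too few reads to order.

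E2F, the transcription factor that RBR holds back, was found in 2 unigenes. Unigene11875 (1205 bases) had 46, 151 and 92 reads, or 6.53, 21.4 and 13.1 RPKM, 3.28-fold higher in the reactivating than in the dormant library (2.35 to 4.67). Its active level was 1.64-fold below the reactivating one (1.26 to 2.15), an order of libraries like that of the A-type cyclins and unlike that of most RBR unigenes. Unigene47252, with the same best hit, had 8, 19 and 22 reads, or 3.64, 8.64 and 10.01 RPKM, and its reactivating to dormant interval of 0.993 to 6.27 included 1.

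The condensin-named unigenes split into 3 that were abundant in the dormant library and 6 that were scarce there, a division made after their values were seen. SMC1 (Unigene58669) had 679, 465 and 458 reads, or 82.9, 56.8 and 56.0 RPKM, 1.46-fold lower in the reactivating than in the dormant library (1.30 to 1.65). SMC3 (Unigene56112) had 420, 203 and 243 reads, or 88.9, 42.9 and 51.5 RPKM, 2.07-fold lower (1.75 to 2.46). The best hits call both condensin components, although SMC1 and SMC3 are by common use the names of the cohesin ring. Both had active levels within 1.198-fold of the reactivating ones, with intervals that included 1.

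Another abundant unigene, named condensin complex components subunit (Unigene53784), had 365, 260 and 254 reads and was 1.40-fold lower in the reactivating than in the dormant library (1.19 to 1.65). With the same name, Unigene10724 had 4, 58 and 50 reads, or 0.709, 10.3 and 8.87 RPKM, and was 14.5-fold higher (5.37 to 55.0). Unigene11602 had 2, 35 and 17 reads, with a reactivating to dormant ratio of 17.5 (4.50 to 150) and an active level 2.06-fold below the reactivating one (1.12 to 3.91). Condensin complex subunit 2 (Unigene10971) had 6, 21 and 18 reads and was 3.50-fold higher in the reactivating library (1.37 to 10.6). Together the 6 scarce unigenes had 19 (11.4 to 29.7), 125 (104 to 149) and 98 (79.6 to 119) reads, against 1464, 928 and 955 for the 3 abundant ones. Because the split was made on the dormant reads, these sums describe the unigenes and support no direction. Not all 6 had the same order, since Unigene32843 had 6, 6 and 7 reads.

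A pair of unigenes was named protein regulator of cytokinesis, of the family whose plant members bundle microtubules in the phragmoplast, where the new cell wall forms. Unigene58589 was abundant throughout, with 480, 712 and 596 reads, or 59.9, 88.9 and 74.5 RPKM, and was 1.48-fold higher in the reactivating than in the dormant library (1.32 to 1.67). Unigene57967 had 6, 215 and 245 reads, or 0.895, 32.1 and 36.6 RPKM, and was 35.8-fold higher (16.2 to 98.7). The intervals of these ratios did not overlap. Unigene57967 also stayed level between the reactivating and active libraries, with an interval of 0.946 to 1.38 around a ratio of 1.14, whereas Unigene58589 was 1.19-fold lower in the active library (1.07 to 1.33). Gene ontology terms in the tables place Unigene58589 at cortical and Unigene57967 at cytoplasmic microtubules.

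**Figure D3:**
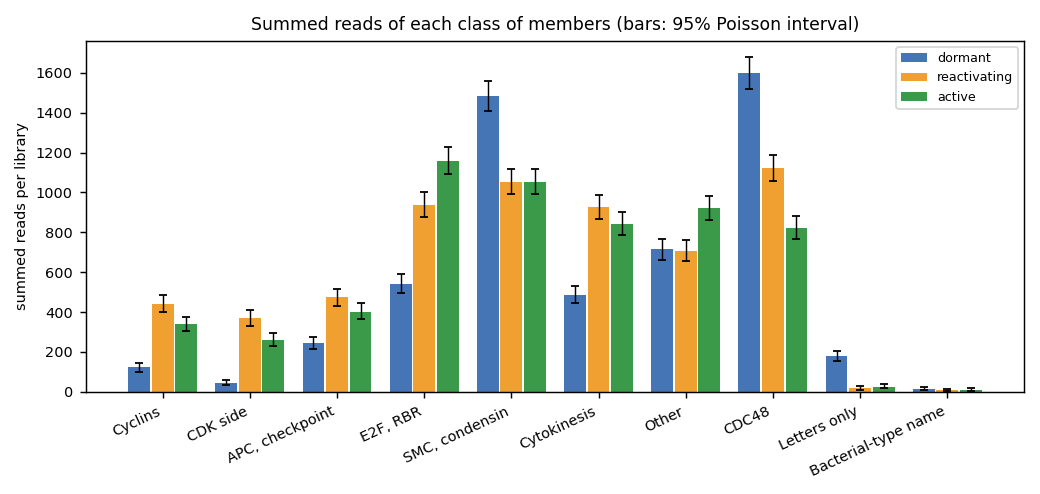
Summed reads of each class of members in the 3 libraries, with 95% Poisson intervals as error bars (counting error only, 1 library per stage). The cyclin and CDK classes were highest in the reactivating library, the E2F and RBR class was highest in the active one at 1158 reads, and the SMC and condensin class and CDC48 were highest in the dormant one at 1483 and 1597 reads.

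Members with division names that fit no class above differed among themselves. The CDT2 unigene (Unigene36290), named for a ubiquitin ligase adaptor that in animals and fission yeast removes a replication licensing factor, had 2, 25 and 17 reads and a reactivating to dormant ratio of 12.5 (3.12 to 109). The CDC15 unigene (Unigene1307, 4397 bases), named for a budding yeast kinase of mitotic exit, had 515, 477 and 779 reads, or 20.03, 18.5 and 30.3 RPKM. Its active level was 1.63-fold above the reactivating one (1.46 to 1.84), while its reactivating to dormant interval of 0.816 to 1.05 included 1. A unigene named only cell division cycle (Unigene18041) had 178 reads in both the dormant and the reactivating library and 109 in the active one, 1.63-fold lower (1.28 to 2.09). Another with that name (Unigene42908) had 4, 5 and 2 reads.

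Besides cyclin-L1, 4 of the 43 members carry a name from the search without a known role as cell cycle regulators, or with a wider one. CDC48 (Unigene52411), an ATPase that pulls ubiquitin-tagged proteins apart in many processes, was the most abundant member in each library, with 1597, 1121 and 823 reads, or 506, 355 and 261 RPKM. It was 1.42-fold lower in the reactivating than in the dormant library (1.32 to 1.54) and 1.36-fold lower again in the active one (1.24 to 1.49). The cycling DOF factor (Unigene25965), of a clock-linked transcription factor family, entered by its letters and had 178, 17 and 26 reads, 10.5-fold lower in the reactivating library (6.36 to 18.4). It was 1 of the 2 members at least 2-fold lower in that comparison, the other being SMC3. An FtsJ-named unigene (Unigene8361), of a bacterial RNA methyltransferase family, had 13, 8 and 9 reads, and a fatty acid condensing enzyme (Unigene39693) had 1 read in all.

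**Figure D4:**
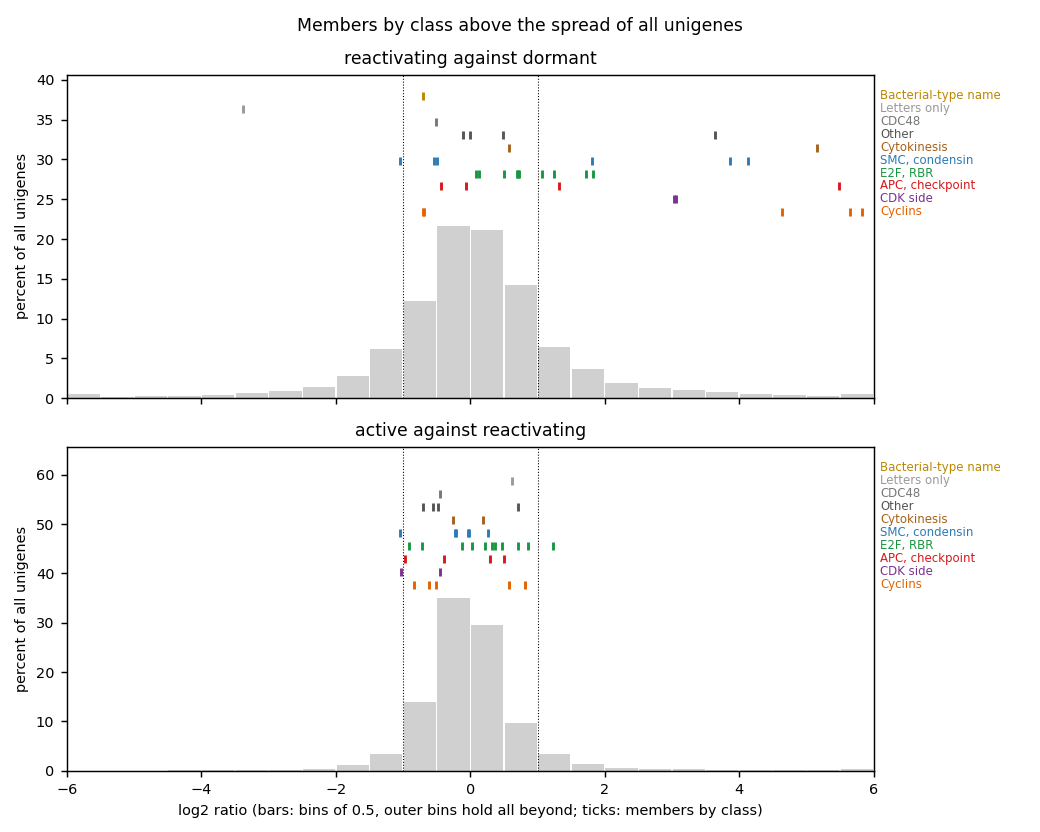
Log2 ratios of the members by class, as ticks, above the spread of all unigenes measured in both libraries, as bars in percent of those unigenes, with dotted lines at 2-fold. In the upper panel 16 member ticks lie beyond the right dotted line and 2 beyond the left, and in the lower panel 1 lies beyond the right and 2 beyond the left.

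Between the active and the reactivating library the members lay close together. Of 36 measured, 1 was at least 2-fold higher, or 2.78%, beside 6.76% of 36079 unigenes, and 2 were at least 2-fold lower, or 5.56%, beside 5.14%, so neither share stood out from the background. The higher one was the RBR unigene Unigene10806, at 6 and 14 reads, and the lower ones were the B1-type CDK and the condensin-named Unigene11602. These calls sat at the threshold, since with TMM or DESeq2 scaling, or with 1 read added, no member was at least 2-fold lower. The median log2 ratio was -0.08 over the members and -0.06 over all unigenes, and it was -0.25 over the members with the RBR and E2F unigenes each summed to 1. Counting intervals lay below 1 for 13 members, or 36.1%, beside 19.9% of all unigenes, and above 1 for 5, or 13.9%, beside 15.6%. They included 1 for 18. Exclusion of 1 depends on read depth, and members were longer by median than all unigenes, so these shares were not matched for depth. The 13 included the 3 cyclins scarce in dormancy, both comparable CDK unigenes, MAD2 and the larger E2F unigene. The 5 were 3 RBR unigenes, CDC15 and cyclin-L1.

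The active library was also set against the dormant one, which it shares with the first comparison. Of 35 members measured, 15 were at least 2-fold higher, or 42.9%, beside 18.1% of 36288 unigenes, and 1 was at least 2-fold lower, the cycling DOF factor, or 2.86%, beside 13.8%. Of the 15, 9 had at most 10 dormant reads. They reached the minimum mostly through the active library, which favoured a higher call, and those with the fewest had to differ. The median log2 ratio was 0.79 over the members and 0.01 over all unigenes, and it was 0.46 with the RBR and E2F unigenes each summed to 1. The 15 included 4 RBR unigenes, where the reactivating to dormant comparison had 2. The regulator of cytokinesis Unigene57967 was 40.9-fold higher (18.5 to 112), the cyclin Unigene4080 35.0-fold (9.34 to 295) and the cyclin A1-like unigene 31.7-fold (10.5 to 156). MAD2, at 0 dormant reads, was 22.7-fold higher with 3 reads in place of 0. Its interval began at 18.0-fold, and it cannot be ranked among them.

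Taken over the 3 libraries, with a rule chosen after the values were seen, members were sorted by the library in which they were highest. Among the 31 with at least 50 reads, 13 were highest in the reactivating library, or 41.9%, beside 33.5% of 31946 unigenes. For 11 of these the intervals against both other libraries excluded 1, or 35.5% of the 31, beside 11.6% of all unigenes. They were the 3 cyclins scarce in dormancy, the CDK regulatory subunit, the B1-type CDK, the anaphase promoting complex subunit, MAD2, the larger E2F unigene, RBR Unigene6658, Unigene11602 and the regulator of cytokinesis Unigene58589. Several of these reached 50 reads mostly through the other libraries, such as MAD2 with 0 and Unigene4080 with 2 dormant reads. Their intervals against the dormant library were therefore likely to exclude 1. In the active library 11 were highest, or 35.5%, beside 28.5%, and 4 of them with intervals that excluded 1, or 12.9%, beside 10.4%. The dormant library was highest for 7, or 22.6%, beside 38%, and for 5 with intervals that excluded 1, or 16.1%, beside 20.2%. These 5 were SMC1, SMC3, Unigene53784, CDC48 and the cycling DOF factor.

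Other unigenes, outside the member rule, were read from a pair of lists matched by names of the division pathway. The matches also took in names that are not particular to division. Examples are syntaxins in the list for the mitotic apparatus, and DNA polymerase lambda and DNA ligase IV in the list for DNA synthesis. In the list for the mitotic apparatus, with kinesins, tubulins, centromere proteins and similar names, 19 of 35 measured unigenes stood 2-fold or more above their dormant level in the reactivating library and 1 as far below (median log2 ratio 1.51). Those are 54.3% and 2.86%, beside 16.9% and 13.8% of all unigenes. A centromeric protein E unigene (Unigene59493), a kinetochore motor, had 23, 305 and 163 reads, and the bipolar kinesin (Unigene8342), which pushes spindle poles apart, had 0, 128 and 90. In the list for DNA synthesis and histones, 23 of 32 were higher, or 71.9% beside the same 16.9%, and 0 lower (median 2.14), among them the licensing factor MCM7 (Unigene130) with 9, 174 and 99 reads. In both lists some of the higher unigenes, such as the bipolar kinesin and MCM7, had at most 10 dormant reads. They reached the minimum of 20 reads mostly through the reactivating library, so these shares are no independent support. Between the active and the reactivating library the lists had medians of 0.15 and -0.38 in that order. The summed reads of the mitotic apparatus list were 5109, 11608 and 15283, highest in the active library. Abundant tubulins weigh on this sum, such as an alpha-tubulin (Unigene6470) with 449, 1868 and 2321 reads. Of 32 unigenes of that list with at least 50 reads, 16 were highest in the active library, or 50%, beside 28.5% of all unigenes. Another 10 were highest in the reactivating library, or 31.25% beside 33.5%, and 6 in the dormant one, or 18.75% beside 38%. Several of the 16 were tubulins, and whether these share transcripts was not tested. Centromeric protein E and the bipolar kinesin were highest in the reactivating library. The reads of the DNA synthesis list summed to 2348, 7828 and 6122, highest in the reactivating library as for the cyclins and MAD2.

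Names that mark cell types were read in the same libraries. The meristem and cambium list (56 unigenes) had 9568 dormant, 13460 reactivating and 13486 active reads, with 2, 2 and 4 unigenes at 0. The list for differentiating xylem (84 unigenes) had 7951, 4881 and 31008 reads, with 12, 7 and 0 at 0. Phloem (3 unigenes) had 507, 252 and 300, photosynthetic bark cells (24 unigenes) 431, 408 and 305, and resin ducts (23 unigenes) 965, 1297 and 310. The meristem and cambium list matched homeobox, clavata and similar names, which are not particular to the cambium. Its sum was lowest in the dormant library, as were the sums of the cyclins, the CDK side and RBR. The other lists had other orders. The xylem and phloem sums were lowest in the reactivating library, and the bark and resin sums in the active one. The phloem sum was highest in the dormant library, and so was the bark sum, by a small margin. The part of such shifts in tissue make-up in the member values was not tested.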

How the data were processed

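The series holds 1 RNA-seq library per stage. Per the labels' protocols, oligo(dT) beads captured the messenger RNA, which was broken to pieces near 200 bp, reverse transcribed from random hexamers, PCR-amplified and read on an Illumina HiSeq 2000. Per the file headers, each deposited table gives the count of uniquely mapped reads, the length, the coverage in percent and the RPKM of each unigene. The authors made the RPKM from the count, the length and the library total, which was checked in every row. Not given in the sources used here are the assembler, the mapper and any use of strand. Reads shared by close copies or overlapping transcripts are outside a unique count. No sequences or genome positions were used here.

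Unigenes not listed for a library were counted there as 0. Ratios are between libraries scaled by their totals, with 95% exact Clopper-Pearson intervals from the reads. Where a library had 0 reads, 3 reads per library stood in as the floor, about 0.513 RPKM on 1 kilobase. A ratio entered a count where the compared libraries held 20 or more reads between them, and a member was named with at least 50 reads over the 3 libraries, or with fewer where its class was small or it crossed a threshold. Names of classes are patterns on the best-hit text, first match wins. The members and lists were chosen with earlier results of these data known. The ratio script was tested on simulated data. Alternatives used edgeR 4.0.16 and DESeq2 1.42.0 for scaling factors only, other minimums, folds, lengths and groupings of unigenes. Python 3.11.15, pandas 2.3.3, numpy 2.4.6, scipy 1.17.1 and matplotlib 3.10.9 were used, with R 4.3.3.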

Additional observations from a re-analysis of the deposited data

How the results depend on the processing

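No paired analysis was possible because each stage has 1 library. All 27 median log2 ratios recomputed under other settings kept their sign, but with RBR and E2F each summed to 1, chosen after seeing the data, the active against dormant median went from 0.79 to 0.46 and the active against reactivating one from -0.08 to -0.25. TMM and DESeq2 factors moved all ratios by at most 0.07 on the log2 scale. The 16 members at least 2-fold higher in the reactivating than in the dormant library became 9 with a minimum of 100 reads, 10 with a 4-fold ratio, 10 with at least 500 bases and 10 with reads summed by description, all settings that test fewer unigenes or ask for more. The 2 lower members became 1 with a 4-fold ratio, with intervals wholly beyond 2-fold and with at least 500 bases. They also became 1 without the cycling DOF factor, the FtsJ-named unigene and CDC48. Between active and reactivating, the 1 higher member became 0 with a minimum of 100 reads, a 4-fold ratio, intervals wholly beyond 2-fold, at least 500 bases, sums by description, or RBR and E2F each summed to 1. The 2 lower members became 0 with TMM, DESeq2, a minimum of 100 reads, a 4-fold ratio, intervals wholly beyond 2-fold, 1 read added and at least 500 bases, and 1 with sums by description. Against dormant, the 15 members higher in the active library became 7 with a minimum of 100 reads, 8 with a 4-fold ratio and 7 with intervals wholly beyond 2-fold. These settings likewise test fewer members or ask for more, so the counts are not shares of the same number. The 1 lower member became 0 with at least 500 bases and without the cycling DOF factor, the FtsJ-named unigene and CDC48. All 276 recomputed ratios of single members stayed within their main counting interval. Because scaling moved ratios by less than these intervals span, this outcome was nearly fixed in advance. Depth limits members under about 20 reads, whose intervals span several-fold, and no replicate exists at any stage.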

Other observations

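Gene ontology terms of the cell cycle, division, mitosis or cytokinesis, a search chosen after the data were seen, were carried by 177 unigenes, 18 of them members. Outside the members and the lists for the mitotic apparatus and DNA synthesis there were 157, and of 113 measured between the reactivating and the dormant library 40 were higher and 5 lower by 2-fold or more. The higher ones are 35.4%, beside 16.9% of all unigenes, and 13.8% of all unigenes were lower. Their median log2 ratio was 0.45, against 0.07 over all unigenes. Here too, unigenes with few dormant reads reached the minimum of 20 reads mostly through the reactivating library, so the share is no independent support. Between the active and the reactivating library 5 of 113 were higher and 5 lower (median -0.14), or 4.42% each, near the 6.76% and 5.14% of all unigenes. The unigenes named below were chosen after their values were seen. A pair of CDK unigenes lacked the searched words, namely cdc2Pa (Unigene49099) with 147, 398 and 331 reads and cdc2Pnc (Unigene55284) with 269, 425 and 492 reads (dormant, reactivating and active). Their reactivating to dormant ratios were 2.71 (2.235 to 3.29) and 1.58 (1.35 to 1.85), below those of the B1-type CDK and the CDK regulatory subunit, with intervals that did not overlap. An Rb-related unigene with other wording (Unigene1839) had 8, 7 and 10 reads.

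Several unigenes with such a term and no informative name were absent or nearly absent in the dormant library. Unigene12222 had 0, 734 and 365 reads. With 3 reads in place of 0 its reactivating level was 245-fold higher than the dormant one, with an interval from 198-fold. Unigene837 had 0, 438 and 244 reads, 146-fold higher by the same floor, with an interval from 118-fold. Unigene17629 had 3, 489 and 306 reads, a ratio of 163 (55.4 to 793). All 3 had fewer reads in the active than in the reactivating library, the order seen for the A-type cyclins. The TPX2-like unigene (Unigene11821), named for a spindle assembly factor, differed, with 31, 108 and 600 reads and an active level 5.56-fold above the reactivating one (4.52 to 6.89).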
